A study of Mus musculus with 9 samples.

Results

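The small proline-rich (Sprr) and late cornified envelope (Lce) genes were followed in mouse back skin across 3 treatments. All rows of the gene table whose symbol begins with Sprr or Lce and a digit were taken, which gave 38 of 56859 genes: 14 Lce1, 6 Lce3, 1 Lce6, 2 Sprr1, 13 Sprr2, 1 Sprr3 and 1 Sprr4 gene. RNA sequencing was done on wild-type (WT) Balb/c mice of 6 to 8 weeks, kept under specific-pathogen-free conditions, whose back had been shaved. In the first group, called IMQ with bergapten, the skin received imiquimod (IMQ) for 7 days and a bergapten gel for 2 days. In the second group, called IMQ, the skin was challenged with IMQ for 7 days, and in the third, called vaseline, it was given vaseline for 7 days. Each group had 3 libraries. A gel without bergapten is not among the groups in the labels. Whether the libraries of a group came from different mice is not stated there, and p-values then cover only the spread between these libraries, which may be technical. IMQ activates Toll-like receptor 7 and brings about psoriasis-like inflammation when spread on mouse skin, and bergapten is a furanocoumarin from plants.

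Sprr and Lce proteins are building blocks of the cornified envelope, the protein shell that forms under the membrane of keratinocytes as they turn into dead corneocytes. Transglutaminases cross-link them to each other and to loricrin, involucrin and other precursors. Their genes lie in the epidermal differentiation complex. In human skin, LCE1 genes are expressed in normal epidermis, LCE3 genes are low there and are induced by barrier injury and in psoriatic plaques, and a common deletion of LCE3B and LCE3C is a known risk factor for psoriasis. SPRR2 genes are known as genes that stressed and inflamed epithelia switch on.

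The 38 genes lay on chromosome 3 (GRCm39) between bases 92123106 and 92926367, a span of 803 kb. The order along the chromosome followed the subfamilies. The 13 Sprr2 genes came first, all on the plus strand, from Sprr2a1 to Sprr2k. Sprr1b, Sprr3, Sprr1a and Sprr4 followed on the minus strand, with Sprr1b only 2.9 kb beyond Sprr2k. After a gap of 119.6 kb came Lce6a, then 13 of the Lce1 genes between bases 92553842 and 92758593, of which 12 were on the minus strand. The 6 Lce3 genes lay at bases 92832594 to 92900733. Lce1m stood apart from the other Lce1 genes, 24.4 kb beyond Lce3f, at bases 92925117 to 92926367.

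Promoter sequences are shown for Sprr2, Sprr1 and Lce3 genes, which rose in IMQ, for Lce1g and Lce1h, the Lce1 genes that rose most, and for Lce1m, the Lce1 gene that fell. RefSeq promoters on build GRCm38.p6, each 250 bases before to 50 bases after the gene start, were at hand for 34 of the 38 genes. The letters TGANTCA, the AP-1 motif that Fos and Jun proteins are known to bind, were searched on both strands. They occurred in the promoters of 7 of the 7 Sprr2 genes outside the Sprr2a group that had a sequence, in 0 of 3 Sprr2a genes, in 2 of 2 Sprr1 genes and in 0 of 20 Lce genes, against 7.81% of 32851 promoters of the same length. In the 7 Sprr2 promoters the motif began 193 to 198 bases before the start. The lines below give 40 bases that span it, 5′ to 3′ on the plus strand, with the motif in capitals.
Sprr2b: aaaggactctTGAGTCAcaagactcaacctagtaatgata
Sprr2d: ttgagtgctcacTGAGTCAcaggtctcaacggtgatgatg
Sprr2e: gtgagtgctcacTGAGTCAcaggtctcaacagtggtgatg
Sprr2f: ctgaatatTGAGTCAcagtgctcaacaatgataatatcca
Sprr2h: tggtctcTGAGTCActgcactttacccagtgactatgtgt
Sprr2i: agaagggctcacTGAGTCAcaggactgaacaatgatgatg
Sprr2k: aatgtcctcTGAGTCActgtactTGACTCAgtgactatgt
These windows began at bases 92316500, 92338935, 92351938, 92364982, 92385480, 92407786 and 92432377 of chromosome 3 in the order shown. Sprr2d and Sprr2e shared 37 of 40 bases without gaps, and Sprr2k held a second copy of the motif.

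The Sprr1 promoters held AP-1 motifs nearer to the start, at 111 bases before it in Sprr1b and at 146 and 116 bases in Sprr1a. The lines below give bases 160 to 21 before the start on the minus strand, at chr3:92438800-92438939 for Sprr1b and chr3:92485902-92486041 for Sprr1a. Capitals mark AP-1 motifs and TATAAA, the TATA box.
Sprr1b: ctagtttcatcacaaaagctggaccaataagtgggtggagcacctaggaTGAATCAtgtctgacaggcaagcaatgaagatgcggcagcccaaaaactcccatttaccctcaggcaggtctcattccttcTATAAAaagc
Sprr1a: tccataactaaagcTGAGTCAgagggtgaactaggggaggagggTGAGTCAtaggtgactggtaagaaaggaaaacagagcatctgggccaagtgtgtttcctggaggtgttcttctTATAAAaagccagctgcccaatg
TATAAA was present on either strand in 10 of 14 Sprr promoters and in 4 of 20 Lce promoters, against 13.6% of all promoters. The Sprr matches began 29 to 43 bases before the start. Among the Lce matches, those of Lce1m and Lce1d began 29 and 30 bases before it. Those of Lce6a and Lce3e lay on the opposite strand at 218 and 243 bases, far from the usual place of a TATA box.

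ATAAAAG, a motif added after the sequences had been seen, occurred in 10 of 13 Lce1 and 5 of 6 Lce3 promoters and in 5.42% of all promoters. It can overlap TATAAA, as it does in Lce1m. Bases 70 to 11 before the start are given below, with ATAAAAG and any overlapping TATAAA in capitals, for 3 Lce3 genes on the plus strand (windows from bases 92944416, 92966991 and 92992147) and for Lce1g, Lce1h and Lce1m on the minus strand (from bases 92752349, 92765076 and 93019072).
Lce3c: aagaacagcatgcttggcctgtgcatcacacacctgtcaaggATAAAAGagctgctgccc
Lce3e: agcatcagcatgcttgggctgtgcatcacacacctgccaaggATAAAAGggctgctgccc
Lce3f: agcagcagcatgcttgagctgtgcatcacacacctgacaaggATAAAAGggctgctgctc
Lce1g: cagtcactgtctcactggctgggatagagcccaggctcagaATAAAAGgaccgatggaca
Lce1h: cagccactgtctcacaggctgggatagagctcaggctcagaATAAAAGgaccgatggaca
Lce1m: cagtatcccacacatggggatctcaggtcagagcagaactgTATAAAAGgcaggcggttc
Without gaps, Lce3e and Lce3f shared 56 of 60 bases and Lce1g and Lce1h 57 of 60. Lce1a2, which was not called, shared 47 and 48 of 60 with Lce1g and Lce1h. Among the other motifs searched, TGACNNNGC (the core of the antioxidant response element) occurred in 7 of the 34 promoters against 12.4% of all, CACCC in 15 against 57.5%, and AGGAAG in 17 against 35.4%. A match describes letters only.

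The libraries held 15855439 to 19862905 counted reads. The 38 genes took 0.289% to 0.391% of them in IMQ with bergapten, 0.395% to 0.504% in IMQ and 0.0852% to 0.0982% in vaseline. Levels below are CPM, a gene's counts scaled to a common library size after TMM normalisation, given in the order of libraries 1, 2 and 3. Of the 38 genes, 36 had enough counts to be tested. Sprr3, which is known from wet epithelia such as the oesophagus, had 1, 1 and 3 counts in IMQ with bergapten and 0 in each IMQ and vaseline library, and the pseudogene Sprr2c-ps had 1, 2 and 0 counts in IMQ with bergapten and 0 elsewhere. Both were left out of the tests.

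IMQ library 2 stood apart from the other IMQ libraries. Among the 3 IMQ libraries it was the highest for 14 of 14 Lce1 genes, Lce6a, Sprr1a and Sprr4. It was the lowest for 12 of 12 tested Sprr2 genes, 6 of 6 Lce3 genes and Sprr1b. Among the IMQ with bergapten libraries, library 1 was the highest for 14 of 14 Lce1 genes and the lowest for 6 of 6 Lce3, 9 of 12 Sprr2 and both Sprr1 genes. The summed level of 9 neutrophil markers was 2823, 6006 and 6784 CPM in IMQ with bergapten, 8227, 3959 and 9724 CPM in IMQ, and 137, 169 and 153 CPM in vaseline. S100a8 and S100a9, which inflamed keratinocytes are also known to express, made up most of it in the groups given IMQ. The other 7 markers summed to 162, 228 and 247 CPM in IMQ with bergapten, 421, 218 and 259 CPM in IMQ, and 131, 163 and 145 CPM in vaseline. Most of this vaseline sum was Il1r2, with 101, 125 and 106 CPM, against 103, 91.5 and 65.6 CPM in IMQ. Of the 9 markers, 7 were called higher and 0 lower in IMQ than in vaseline, against 23.0% and 20.2% of all genes tested. IMQ library 2 was the lowest IMQ library in both sums. The part of these cells in the results was not tested. IMQ library 3 had 1113 CPM over 11 hair follicle inner root sheath and matrix genes, while IMQ libraries 1 and 2 had 42.7 and 47.7 CPM. These genes summed to 61.0 to 75.0 CPM in IMQ with bergapten and 66.4 to 76.5 CPM in vaseline. The 8 adipocyte markers summed to 3775, 3172 and 3097 CPM in IMQ with bergapten, 5223, 1345 and 2707 CPM in IMQ, and 7663, 7520 and 7537 CPM in vaseline.

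**Figure D1:**
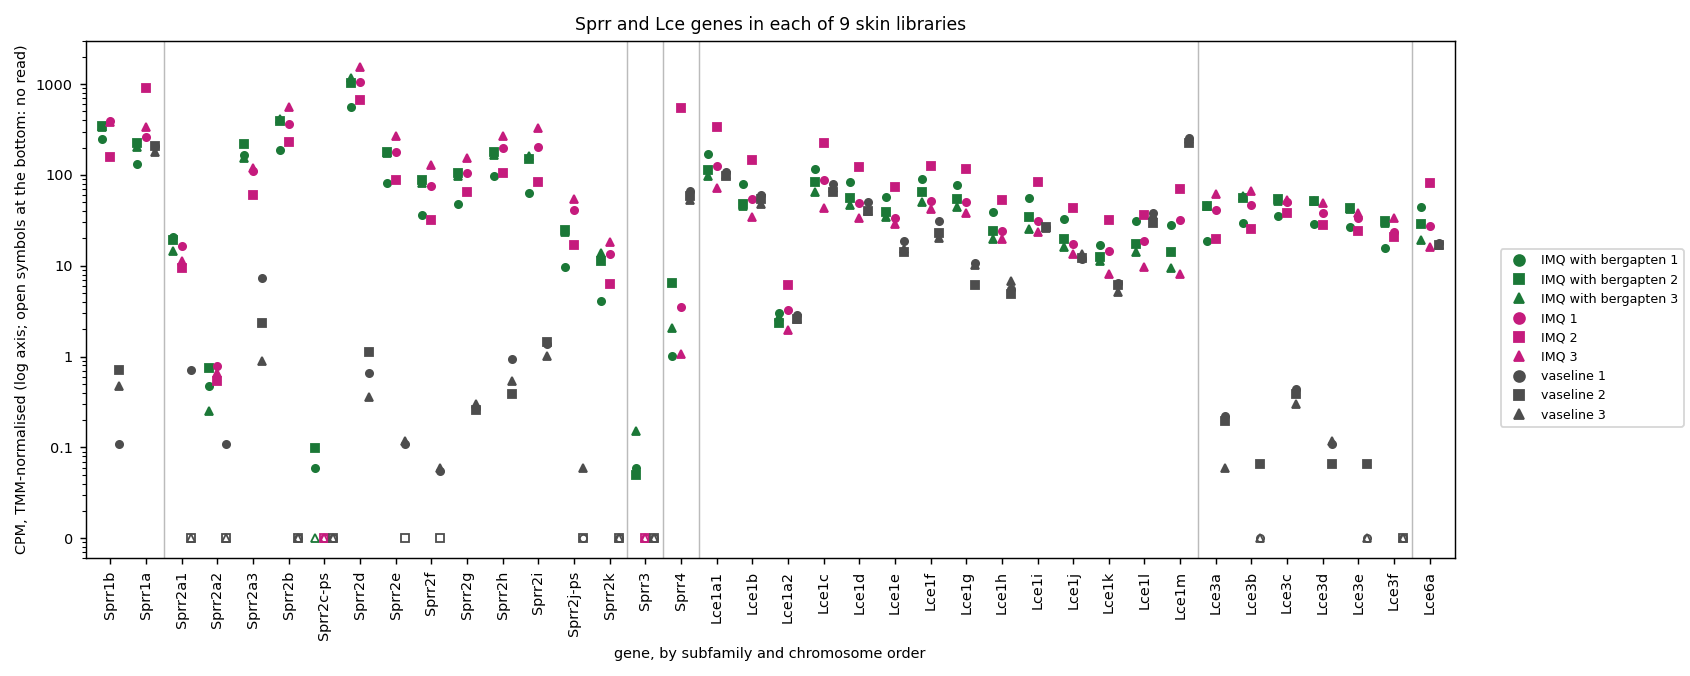
Level of each of the 38 genes in CPM (log axis) in each library, with IMQ with bergapten in green, IMQ in pink and vaseline in grey, and symbols for libraries 1 to 3. Sprr2 and Lce3 genes sit near or at 0 in vaseline and rise in both other groups, while most Lce1 genes overlap between groups and Lce1m is lower in both groups given IMQ.

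The first comparison asks what IMQ did to these genes. After IMQ, every tested Sprr2 and Lce3 gene and both Sprr1 genes rose, Lce1 genes were mixed, and Lce1m fell. In all, 26 of 36 genes were called at an adjusted p under 0.05 (25 rose and 1 fell; edgeR quasi-likelihood test, Benjamini-Hochberg over 18005 genes), against 43.2% of all genes tested (23.0% higher and 20.2% lower). The median log2 fold change of the 36 genes was 4.31, beside 0.03 for all genes tested. The groups did not overlap for 26 of the 36, against 52.3% of all genes. Without IMQ library 2, 27 were called, 24 of which rose and 3 fell.

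The Sprr2 genes, whose short proteins carry proline-rich repeats, were nearly silent in vaseline skin and abundant in both groups given IMQ. All 12 tested rose. Their median log2 fold change was 9.51, and 8.39 with the genes lacking vaseline reads set at their lower bound. Summed over the 13 genes, the level was 1275, 2382 and 2462 CPM in IMQ with bergapten, 2374, 1362 and 3471 CPM in IMQ, and 11.5, 5.56 and 3.33 CPM in vaseline. Every library given IMQ was far above every vaseline library.

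Sprr2d, the highest Sprr2 gene in both groups given IMQ, had 557, 1016 and 1162 CPM in IMQ with bergapten, 1059, 667 and 1556 CPM in IMQ, and 0.658, 1.11 and 0.357 CPM in vaseline. It rose 1551-fold in IMQ (log2 fold change 10.60 ± 0.60 SE, adjusted p = 6.72e-06 by edgeR). Sprr2b, with the largest fitted fold change, had 189, 390 and 410 CPM in IMQ with bergapten and 367, 229 and 561 CPM in IMQ, and no read in any vaseline library. With 3 counts over the vaseline group taken as the floor, it was at least 6475-fold higher in IMQ (adjusted p = 0.000113 by edgeR). Sprr2k, the last gene of the block, also lacked vaseline reads, and its level was at least 213-fold higher in IMQ. Sprr2e had 81.3, 178 and 174 CPM in IMQ with bergapten, 181, 87.9 and 265 CPM in IMQ, and 0.110, 0 and 0.119 CPM in vaseline, a 2067-fold rise in IMQ. Sprr2f had 2 counts in the vaseline group and 4607 in IMQ, a ratio per counted read of 2096 (exact 95% interval 580 to 17310, counting error only).

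Sprr2g, Sprr2h and Sprr2i rose 378-fold, 298-fold and 162-fold in IMQ. Sprr2i had 62.8, 149 and 162 CPM in IMQ with bergapten, 204, 83.2 and 332 CPM in IMQ, and 1.37, 1.44 and 1.01 CPM in vaseline. Sprr2j-ps, which is named as a pseudogene, had 41.1, 17.0 and 55.0 CPM in IMQ against a single read in the vaseline group. Its rise followed that of its coding neighbours Sprr2i and Sprr2k in all 3 IMQ libraries, with library 2 the lowest for all 3 genes. That order was not particular to these neighbours, as library 2 was the lowest for all 12 tested Sprr2 genes and all 6 Lce3 genes.

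The 3 Sprr2a genes had the smallest fitted fold changes of the subfamily, and the size of these depended on vaseline library 1. With libraries left out in turn, the log2 fold change reached at most 6.60 for Sprr2a2 and 5.89 for Sprr2a3. Both stayed below the lowest value of Sprr2i, 6.78, while Sprr2a1 reached 10.82. Sprr2a3 had 167, 221 and 154 CPM in IMQ with bergapten, 111, 60.6 and 120 CPM in IMQ, and 7.29, 2.35 and 0.892 CPM in vaseline, a 27.1-fold rise in IMQ (adjusted p = 0.000542 by edgeR). Its 3 groups did not overlap. Without vaseline library 1, the log2 fold change of Sprr2a3 was 5.89 in place of 4.76. Sprr2a1 rose 47.6-fold, to 16.6, 9.49 and 11.3 CPM in IMQ, against 0.713, 0 and 0 CPM in vaseline. All 13 vaseline counts of Sprr2a1 and both of Sprr2a2 were in library 1, so without it neither had a vaseline read. Sprr2a2 stayed under 1 CPM in every library. Of the 149-base windows of their transcripts, 89.7% in Sprr2a1, 89.1% in Sprr2a2 and 19.3% in Sprr2a3 were shared within the Sprr2a group, the Sprr2a1 and Sprr2a2 rows overlapped by 5992 bases, and Sprr2a2 also overlapped Gm37087 and Gm5850 on the other strand. How reads that fit several genes were counted, and whether strand was used, is not given in the sources used here, so the split among these 3 is uncertain. The other Sprr2 genes shared no such window.

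Lce3 genes, the injury-responsive Lce subfamily of human skin, showed the same contrast. All 6 rose in IMQ. Their median log2 fold change was 9.36, and 8.63 with Lce3f at its lower bound. Their summed level was 155, 281 and 279 CPM in IMQ with bergapten, 234, 156 and 300 CPM in IMQ, and 0.768, 0.785 and 0.476 CPM in vaseline. No library given IMQ came near a vaseline library.

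Lce3c, which had the highest mean CPM of the subfamily, had 35.5, 54.7 and 52.1 CPM in IMQ with bergapten, 50.8, 37.9 and 53.4 CPM in IMQ, and 0.439, 0.392 and 0.297 CPM in vaseline. Its rise of 123-fold (log2 fold change 6.95 ± 0.28 SE, adjusted p = 2.6e-07 by edgeR) was the smallest of the 6. Lce3f had 15.8, 31.2 and 29.4 CPM in IMQ with bergapten, 23.6, 20.9 and 33.3 CPM in IMQ, and no read in vaseline. It was at least 435-fold higher in IMQ. Lce3a rose 245-fold and Lce3d 360-fold. Lce3b had 29.2, 55.1 and 58.4 CPM in IMQ with bergapten, 46.6, 25.4 and 65.9 CPM in IMQ, and 0, 0.0654 and 0 CPM in vaseline. Lce3b and Lce3e each had 1 count in the vaseline group, and the ratios per counted read of IMQ to vaseline were 2426 (exact 95% interval 435 to 95850) and 1683 (302 to 66520). Shared windows made up 15.3% of Lce3c, 3.79% of Lce3d, 29.6% of Lce3e and 36.9% of Lce3f, and 0 of Lce3a and Lce3b.

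**Figure D2:**
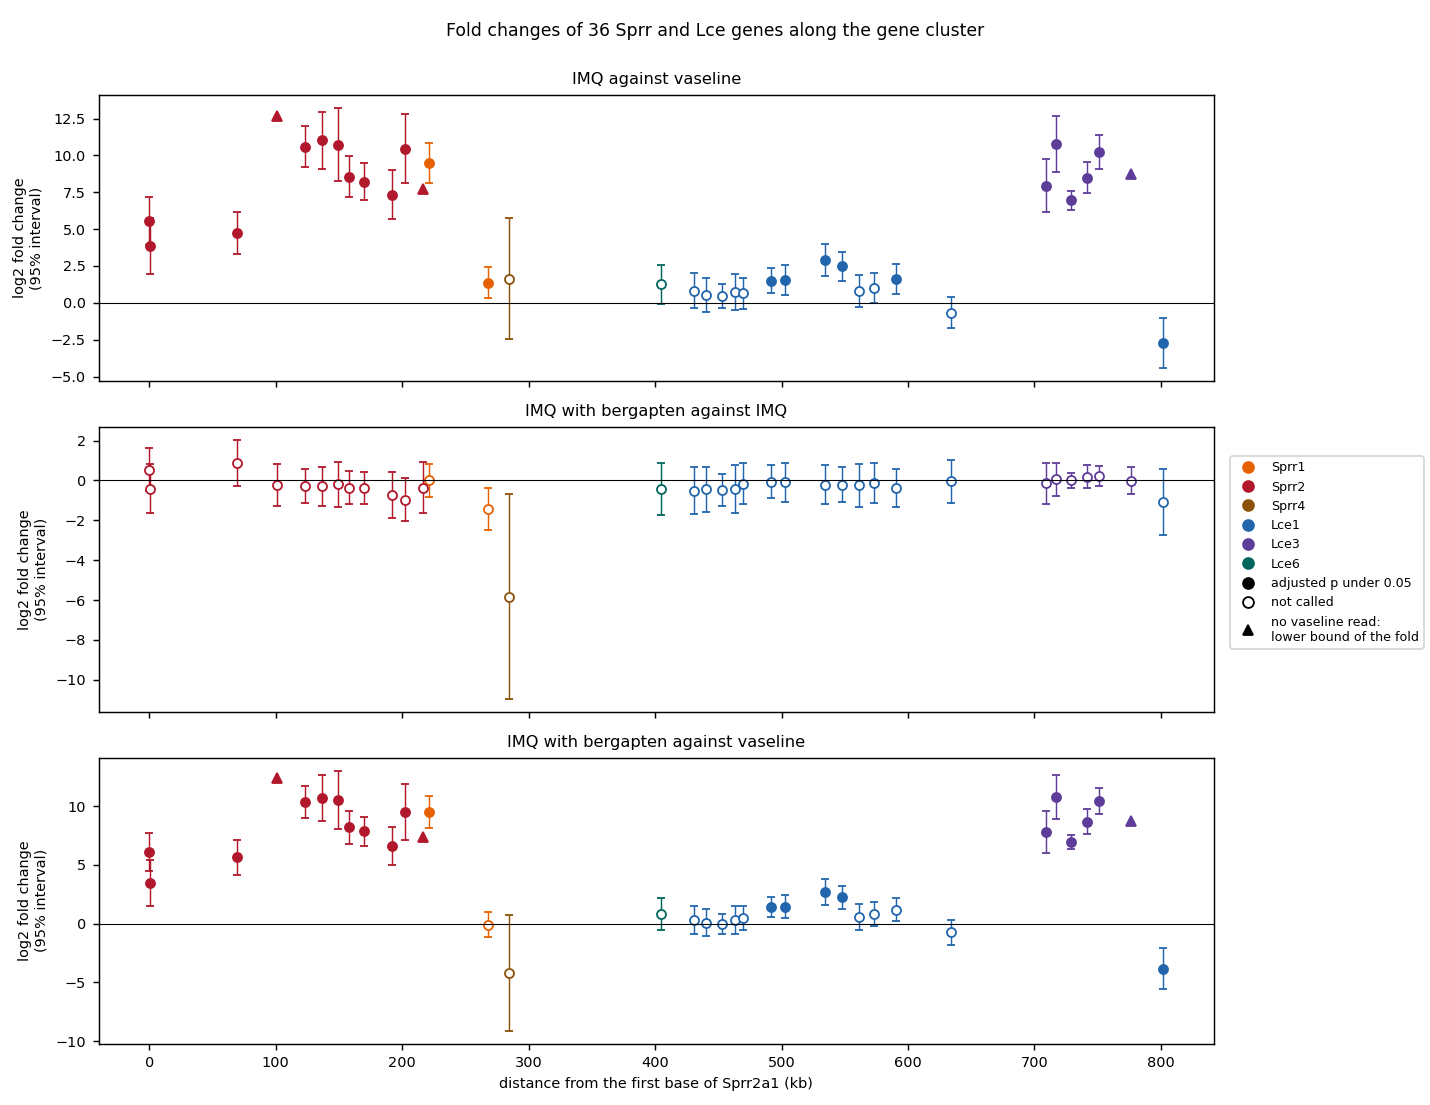
Log2 fold change with its 95% interval for the 36 tested genes against distance from the first base of Sprr2a1 in kb, in 3 panels for IMQ against vaseline, IMQ with bergapten against IMQ, and IMQ with bergapten against vaseline. Filled circles passed an adjusted p of 0.05, open circles did not, and triangles are lower bounds for the 3 genes without vaseline reads. In the outer panels the Sprr2 block at the left end and the Lce3 block near the right end stand high, with Lce1 near 0 between them and Lce1m below 0, while every circle of the middle panel is open.

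The 2 Sprr1 genes, both known to be induced in squamous differentiation and with Sprr3 between them on the chromosome, differed in their vaseline level. Sprr1b had 247, 346 and 338 CPM in IMQ with bergapten, 391, 157 and 384 CPM in IMQ, and 0.110, 0.719 and 0.476 CPM in vaseline, a 729-fold rise in IMQ (adjusted p = 1.13e-05 by edgeR). Sprr1a was already abundant in vaseline, with 131, 227 and 204 CPM in IMQ with bergapten, 260, 915 and 335 CPM in IMQ, and 208, 206 and 179 CPM in vaseline. Its 2.55-fold rise in IMQ (log2 fold change 1.35 ± 0.45 SE, adjusted p = 0.0437 by edgeR) rested on IMQ library 2. Without that library the log2 fold change was 0.59 (adjusted p = 0.0615), and without any 1 of the 3 vaseline libraries the adjusted p was 0.099 to 0.12.

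Lce1 genes, the Lce subfamily of normal epidermis, had totals that overlapped between the groups. Their summed level was 881, 583 and 484 CPM in IMQ with bergapten, 591, 1478 and 378 CPM in IMQ, and 704, 608 and 645 CPM in vaseline, so the vaseline libraries lay inside the range of the IMQ libraries. These totals hold opposite changes. Lce1m, which fell, had a mean of 17.3 CPM in IMQ with bergapten, 36.6 CPM in IMQ and 243 CPM in vaseline. Of the 14 genes, 5 rose, 1 fell and 8 were not called, with a median log2 fold change of 0.81. Direction depended on the library and the scaling: 12 of 14 were higher in IMQ, but 7 of 14 without IMQ library 2, and 8 of 14 when libraries were scaled to 13 epithelial genes. With that scaling 2 of the 14 rose (Lce1g and Lce1h) and 2 fell (Lce1l and Lce1m).

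Lce1g and Lce1h, which lie next to each other, rose most. Lce1g had 78.3, 54.9 and 44.5 CPM in IMQ with bergapten, 49.8, 117 and 38.0 CPM in IMQ, and 10.7, 6.21 and 10.3 CPM in vaseline, a 7.50-fold rise in IMQ (log2 fold change 2.91, or 2.27 without IMQ library 2, adjusted p = 0.00169 by edgeR). Lce1h rose 5.57-fold, to 24.0, 52.5 and 19.6 CPM in IMQ, against 5.48, 4.90 and 6.84 CPM in vaseline. Both kept their groups apart even in the lowest IMQ library. Lce1e, Lce1f and Lce1k rose 2.82-fold, 2.94-fold and 3.04-fold, and these 3 calls were lost without vaseline library 2 (adjusted p = 0.0511, 0.0696 and 0.0552 by edgeR) and with the epithelial scaling. Those of Lce1f and Lce1k were also lost without vaseline library 3 (0.0746 and 0.0654), and without IMQ library 2 their log2 fold changes were 0.92 and 0.93, against 1.56 and 1.60 with it.

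Lce1a1, the Lce1 gene with the highest mean CPM, was not called. It had 168, 112 and 98.0 CPM in IMQ with bergapten, 126, 340 and 72.6 CPM in IMQ, and 108, 97.2 and 99.3 CPM in vaseline. Its IMQ libraries lay on both sides of the vaseline libraries, as did those of Lce1b, Lce1c, Lce1d, Lce1i and Lce1a2. For Lce1j, IMQ libraries 1 and 2 were above all vaseline libraries and library 3 was not. Lce1l had 31.0, 17.5 and 14.2 CPM in IMQ with bergapten, 18.8, 36.4 and 9.65 CPM in IMQ, and 38.2, 29.5 and 36.02 CPM in vaseline. It was not called (log2 fold change -0.68, adjusted p = 0.272 by edgeR), but without IMQ library 2 it fell by 1.28 on the log2 scale (adjusted p = 0.0395).

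Lce1m moved the other way. It had 28.4, 14.2 and 9.38 CPM in IMQ with bergapten, 31.5, 70.1 and 8.08 CPM in IMQ, and 255, 225 and 250 CPM in vaseline. All 6 libraries given IMQ were below all vaseline libraries. It fell by 2.73 on the log2 scale in IMQ (SE 0.72, adjusted p = 0.0179 by edgeR), a call that was lost without IMQ library 1 (adjusted p = 0.0705) and with no filter on low counts (0.0558), and kept without library 2, where it fell by 3.62. Lce6a, the single Lce6 gene, had 44.5, 28.5 and 19.3 CPM in IMQ with bergapten, 27.4, 81.5 and 16.2 CPM in IMQ, and 18.0, 16.9 and 16.9 CPM in vaseline, and was not called in IMQ (log2 fold change 1.27, adjusted p = 0.112 by edgeR).

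Sprr4, whose human counterpart is known to be induced by ultraviolet light, showed the widest spread of all. It had 1.02, 6.41 and 2.09 CPM in IMQ with bergapten, 3.48, 550 and 1.07 CPM in IMQ, and 66.9, 58.1 and 53.4 CPM in vaseline. The other 5 libraries given IMQ were thus far below vaseline, while IMQ library 2, with 10200 counts against 67 and 21 in the other IMQ libraries, was far above it. Sprr4 was not called in IMQ (log2 fold change 1.63, adjusted p = 0.491 by edgeR). Without IMQ library 2 it fell by 4.71 on the log2 scale (adjusted p = 0.00383). The Sprr4 row of the table covers only 231 bases. Cst6, the cystatin M/E gene, picked after its values were seen, had the same outlying library, with 123, 165 and 126 CPM in IMQ with bergapten, 206, 3996 and 102 CPM in IMQ, and 1154, 1094 and 993 CPM in vaseline.

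**Figure D3:**
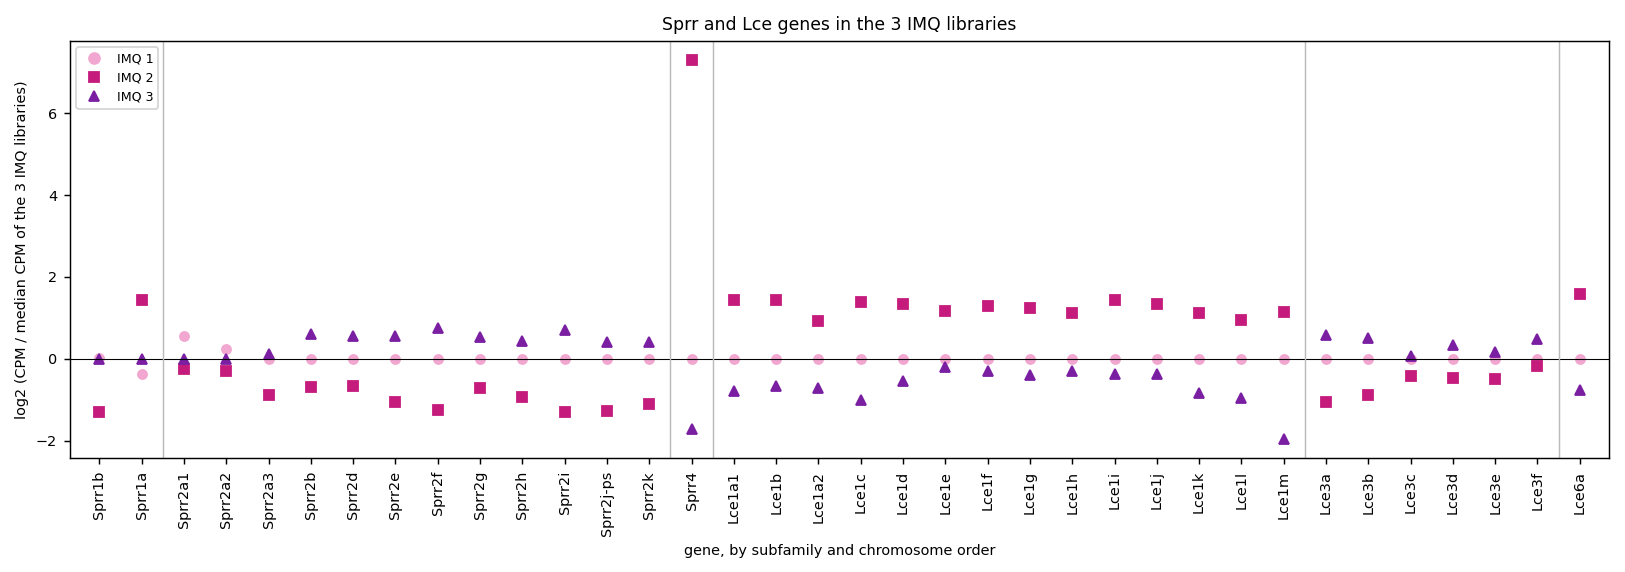
Level of each tested gene in the 3 IMQ libraries as log2 of its CPM over the median of the 3, by subfamily. Library 2 (squares) lies above the other libraries for Sprr1a, Sprr4, all 14 Lce1 genes and Lce6a and below them for the Sprr2 and Lce3 genes.

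The second comparison asks whether the bergapten gel changed these genes in IMQ-challenged skin. None of the 36 was called (edgeR quasi-likelihood test), against 4.83% of all genes tested (2.18% higher and 2.65% lower), and DESeq2 called 0 as well. At an unadjusted p under 0.05 there were 2, Sprr1a and Sprr4. Of the 36, 30 were lower and 6 higher in IMQ with bergapten, with a median log2 fold change of -0.24, beside -0.0045 for all genes tested. That direction rested on IMQ library 2, without which 17 were lower and 19 higher. For Lce1 genes, 14 of 14 were lower with all libraries and 13 of 14 higher without it, and with the epithelial scaling 10 of 14 were lower.

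The 95% intervals give the changes that these libraries allow. Among Lce3 genes, Lce3c had a log2 fold change of 0.0022 with a 95% interval of -0.39 to 0.39, and Lce3a, with the widest interval of the 6, one of -0.15 (-1.17 to 0.88). For Sprr2d it was -0.26 (-1.11 to 0.59) and for Sprr2b -0.23 (-1.26 to 0.81), so that a fall to 0.463 of the IMQ level or a rise to 1.502 times it lay inside the interval of Sprr2d. For Sprr1b it was -0.0020 (-0.83 to 0.82) and for Lce1g -0.21 (-1.19 to 0.78).

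Sprr1a and Sprr2a3 were the 2 genes whose groups did not overlap, against 26.4% of all genes. Sprr1a was lower in all 3 IMQ with bergapten libraries than in any IMQ library (log2 fold change -1.43, 95% interval -2.48 to -0.37, adjusted p = 0.119 by edgeR). When libraries were left out in turn, its log2 fold change lay between -1.74 and -0.67 and its adjusted p between 0.0693 and 0.292. IMQ library 2 was the highest IMQ library for Sprr1a, with 915 CPM against 260 and 335 CPM. DESeq2 gave an adjusted p of 0.0558. Sprr2a3 was higher in all 3 (log2 fold change 0.89, -0.26 to 2.05, adjusted p = 0.337). Sprr2a1 was likewise higher, by 0.54 (-0.54 to 1.63), while the other 10 Sprr2 genes were lower by point estimate. For Sprr4 the log2 fold change was -5.83 (-10.98 to -0.69, adjusted p = 0.179), and without IMQ library 2 it was 0.52 (adjusted p = 0.794).

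**Figure D4:**
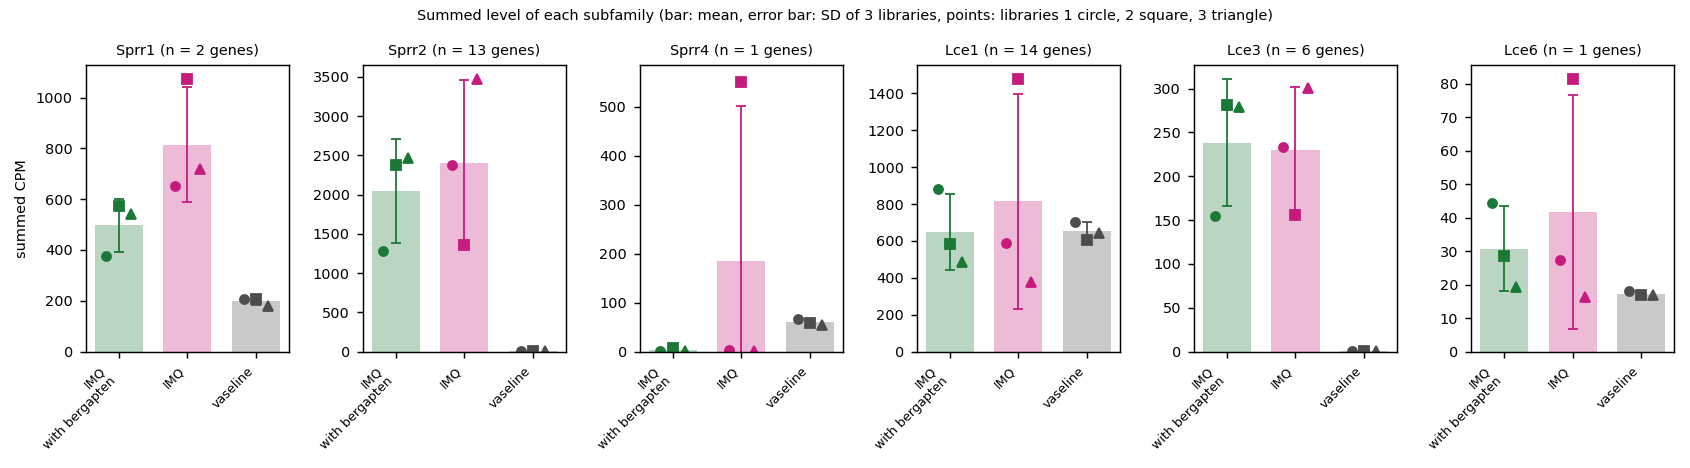
Summed CPM of each subfamily in the 3 groups, with bars for the mean, error bars for the SD of 3 libraries (drawn down to 0 where they pass it) and points for the libraries. Sprr2 and Lce3 stand near 0 in vaseline and overlap between IMQ with bergapten and IMQ, and library 2 (squares) is the highest IMQ point of Sprr1, Sprr4, Lce1 and Lce6.

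The third comparison sets IMQ with bergapten against vaseline, with the same vaseline libraries as the first. Of the 36 genes, 24 were called, 23 of which rose and 1 fell, against 40.4% of all genes tested (20.9% higher and 19.5% lower), and 28 had groups that did not overlap, against 59.2%. All 12 Sprr2 and 6 Lce3 genes rose, as did Sprr1b, Lce1e, Lce1f, Lce1g and Lce1h. The call of Lce1e was lost without vaseline library 2 or 3 or IMQ with bergapten library 1 (adjusted p = 0.0533 to 0.0623 by edgeR). That of Lce1f was lost without any 1 of these or IMQ with bergapten library 2 (0.0653 to 0.0964) and with the epithelial scaling (0.0835). Sprr2b was at least 5535-fold higher, Sprr2d rose 1293-fold, Lce3f was at least 428-fold higher and Lce3b had a ratio per counted read of 2619 (470 to 103500). Lce1m fell by 3.82 on the log2 scale (SE 0.76, adjusted p = 0.00578 by edgeR).

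Sprr1a, by contrast, had a log2 fold change of -0.08 against vaseline (95% interval half-width 1.03, adjusted p = 0.91 by edgeR). Its 3 IMQ with bergapten libraries lay on both sides of the vaseline libraries. Sprr4 was lower in all 3 IMQ with bergapten libraries than in any vaseline library, and was not called (log2 fold change -4.20, adjusted p = 0.153) in the fit whose shared spread included IMQ library 2. With that library left out of the fit, an alternative added after the data had been seen, Sprr4 was called (log2 fold change -4.19, adjusted p = 0.00238), as were Lce1k (1.21, adjusted p = 0.00161) and Lce1j (0.86, adjusted p = 0.0153). Lce6a was higher in all 3 libraries and was not called (log2 fold change 0.83, adjusted p = 0.288).

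Per length, the order of the genes changed with IMQ. In the authors' FPKM, which divide by gene length, the highest genes in vaseline were Lce1m with 268 ± 20.7 FPKM, Sprr4 with 248 ± 30.2 FPKM and Sprr1a with 236 ± 18.9 FPKM (SD, n = 3 libraries), which did not differ beyond their spread. Lce1a1 followed with 139 ± 9.40 FPKM. The FPKM of Lce1m implied a length of 874 bases, against the 1125 bases given with its counts, so its first place depended on the length used. In IMQ with bergapten the highest were Sprr2d with 1379 ± 463 FPKM, Sprr2b with 433 ± 155 FPKM, Sprr1b with 386 ± 62.1 FPKM and Sprr1a with 239 ± 59.7 FPKM. In IMQ, Sprr2d had 1625 ± 713 FPKM, Sprr1a 614 ± 410 FPKM and Sprr2b 498 ± 231 FPKM, while the second place of Sprr4, 763 ± 1305 FPKM, came from library 2. The place of Sprr1a above Sprr2b also came from library 2. Sprr1a had 328, 1083 and 429 FPKM in the IMQ libraries, and Sprr2b 477, 278 and 739 FPKM. Sprr2d had the highest mean in both groups given IMQ, but in IMQ library 2 its 933 FPKM were below the 2270 FPKM of Sprr4 and the 1083 FPKM of Sprr1a.

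The makeup of the family, as shares of its counts without correction for length, shifted with IMQ. Lce1 genes gave 12.8% to 32.2% of the family's counts in IMQ with bergapten, 7.74% to 31.4% in IMQ and 67.9% to 71.7% in vaseline. Sprr2 genes gave 46.7% to 65.0% in IMQ with bergapten, 29.0% to 71.0% in IMQ and 0.37% to 1.14% in vaseline. The lowest Sprr2 share and the highest Lce1 share in IMQ were both those of library 2.

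Other genes of cornification and its control were taken from lists chosen by function, 85 of whose genes were tested. In IMQ, 57 of the 85 were called (49 rose and 8 fell), against 43.2% of all genes tested (23.0% higher and 20.2% lower). The epithelial scaling, which moved the median of all genes by -0.70, gave 33 that rose and 27 that fell. Among the structural partners and cross-linking enzymes, 27 of 44 rose and 4 fell. Flg (filaggrin) rose 22.5-fold (log2 fold change 4.49, or 3.77 without IMQ library 2), Cnfn (cornifelin) 16.6-fold, Tgm3 and Tgm1 (transglutaminases that cross-link envelope proteins) 11.9-fold and 4.92-fold, Cers3 (a ceramide synthase of the skin barrier) 7.47-fold, Rptn (repetin) 5.52-fold, Dsc1 (desmocollin 1) 5.38-fold and Ivl (involucrin) 4.47-fold. Lor (loricrin), the main envelope protein, was not called (adjusted p = 0.592). It had 1371, 721 and 776 CPM in IMQ with bergapten, 1162, 2774 and 497 CPM in IMQ, and 1094, 988 and 1270 CPM in vaseline, with IMQ library 2 again the highest.

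Among 41 regulators of differentiation, 22 rose and 4 fell in IMQ, against the same 23.0% and 20.2% of all genes. Ehf, an ETS-family factor of epithelia, rose 7.29-fold, Grhl3, a factor of barrier formation, 5.52-fold, Ppard 3.07-fold, Cebpb 2.67-fold and Trp63, the p63 factor of stratified epithelia, 1.97-fold. Fosl1, which encodes an AP-1 subunit, rose 5.11-fold (log2 fold change 2.35, or 3.25 without vaseline library 3) but stayed low, with 3.43, 2.64 and 1.02 CPM in IMQ, against 0.274, 0.196 and 0.892 CPM in vaseline. Levels of Fos, Fosb, Fosl2, Jun, Junb and Jund, named after their values were seen, overlapped between IMQ and vaseline. Fos had 182, 182 and 54.7 CPM in IMQ and 111, 280 and 1102 CPM in vaseline. Jun had 172, 274 and 126 CPM in IMQ and 130, 238 and 519 CPM in vaseline. For Junb and Fosl2 the overlap came from vaseline library 3 alone, while Fos, Fosb, Jun and Jund also overlapped with vaseline libraries 1 and 2. Junb had 518, 584 and 330 CPM in IMQ and 168, 191 and 593 CPM in vaseline. Fosl2 had 268, 427 and 247 CPM in IMQ and 227, 188 and 280 CPM in vaseline. Vaseline library 3 was the highest vaseline library for each of these genes and for Fosl1. Nfe2l2, which encodes the antioxidant factor Nrf2, rose 1.53-fold, a direction that turned with the epithelial scaling (log2 fold change -0.11), and Egfr fell to 0.768 of its vaseline level. Klf4, a factor of barrier formation, was not called (log2 fold change 0.13, adjusted p = 0.753 by edgeR). It had 448, 580 and 354 CPM in IMQ and 263, 368 and 630 CPM in vaseline, with vaseline library 3 again the highest vaseline library.

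In IMQ with bergapten against IMQ, 6 of the 85 were called, 1 of which rose and 5 fell, against 4.83% of all genes. Rptn rose 1.59-fold, with 456, 420 and 397 CPM in IMQ with bergapten and 292, 257 and 253 CPM in IMQ. Tgm1 fell to 0.669 of its IMQ level, with 97.9, 124 and 125 CPM in IMQ with bergapten and 172, 170 and 175 CPM in IMQ (adjusted p = 0.0225 by edgeR). Cers3 fell to 0.647, Trp63 and Egfr each to 0.764, and Cebpb to 0.395 of the IMQ level. These calls were close to the threshold: none was made without IMQ with bergapten library 1, and DESeq2 made 13. With the epithelial scaling, 4 of these 6 calls were lost. Cebpb was highest in IMQ library 2, with 8.63, 16.8 and 6.30 CPM in IMQ. With libraries left out in turn, its log2 fold change lay between -1.61 and -0.84 and its adjusted p between 0.00874 and 0.15 by edgeR. Against vaseline, 55 of the 85 were called in IMQ with bergapten (45 rose and 10 fell, or 31 and 31 with the epithelial scaling), against 40.4% of all genes tested (20.9% higher and 19.5% lower).

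Markers of the cells in the skin differed between the groups as well. Basal keratinocyte markers, 8 genes including Krt5 and Krt14, summed to 8956 to 12090 CPM in IMQ with bergapten, 8230 to 11130 CPM in IMQ and 4613 to 5186 CPM in vaseline. Of these 8, 4 rose and 2 fell in IMQ, and the 6 other than Krt5 and Krt14 summed to 1270 to 1320 CPM in IMQ with bergapten, 1350 to 1570 CPM in IMQ and 1590 to 1820 CPM in vaseline. Suprabasal markers, 10 genes including Krt1 and Krt10, summed to 18060 to 22890 CPM in IMQ with bergapten, 12530 to 24700 CPM in IMQ and 7302 to 7978 CPM in vaseline. Dermal fibroblast markers, 8 genes of which 7 fell and 1 rose in IMQ, summed to 25780 to 33430 CPM in IMQ with bergapten, 9391 to 22000 CPM in IMQ and 108000 to 116300 CPM in vaseline. Skeletal muscle markers, 9 genes, summed to 4486 to 4814 CPM in IMQ with bergapten, 4683 to 6462 CPM in IMQ and 17010 to 18190 CPM in vaseline, and 8 sebaceous gland markers to 1443 to 1920, 803 to 1801 and 4032 to 5623 CPM in the same groups. The 7 macrophage and monocyte markers ran from 1636 to 1957, 1318 to 2065 and 1053 to 1282 CPM, and the 6 melanocyte markers from 175 to 306, 126 to 351 and 119 to 140 CPM. The part of these cells in the results was not tested. The rises of the Sprr2 and Lce3 genes were kept with libraries scaled to 13 epithelial genes: 12 of 12 and 6 of 6 were called. Of these 13 genes, 10 rose in IMQ themselves. The scaling factors ran only from 0.665 to 1.31, while the smallest log2 fold change in IMQ was 3.85 for Sprr2 and 6.95 for Lce3. Such factors could not undo rises of this size, so the scaling does not test the part of cell makeup. In bulk skin, a change in the number of cells of a type and a change in RNA per cell cannot be told apart.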

How the data were processed

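Total RNA from mouse back skin was sequenced in 9 libraries, 3 in each of 3 groups. Reads were trimmed with Trimmomatic, aligned with HISAT2 to GRCm39 and assigned to genes by HTSeq 0.6.0, as the submitters' processing notes record. The table deposited by the authors holds raw read counts per gene, and the same deposited table gives the authors' FPKM. Dividing those counts by the FPKM gave a length within 5 bases of the table's for 31 of 38 genes. Lce1m was not among them. FPKM served only to order genes by level. The sheet of sequencing quality deposited by the authors gives raw reads, bases, percent GC, percent of bases past 2 quality thresholds and a mean quality score per library, and no result uses it. Strand use and the handling of multiply mapped reads are not given in the sources used here.

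The table has 56861 rows, of which 2 name no gene and hold 0 counts. Counts were tested with edgeR 4.0.16 in R 4.3.3 (TMM, filterByExpr at 10 counts and a total of 15, robust glmQLFit, 1 group-means model over all 9 libraries, quasi-likelihood F test, two-sided, Benjamini-Hochberg over 18005 genes, called at an adjusted p under 0.05). The spread of a gene is thus shared by all 3 groups. SE is the size of the log2 fold change over the root of F, and 95% intervals use the quantile of t at the fit's degrees of freedom. The script was tested on simulated data. Alternatives were RLE factors, library totals, factors from the mean log level of 13 epithelial genes, no filter, a replicate block, a fit of 2 groups, DESeq2 1.42.0 and leaving out each library, plus, for IMQ with bergapten against vaseline, a fit without IMQ library 2, added after the data had been seen. Exact count intervals and floors cover counting error only. The libraries held 15855439 to 19862905 counts, and replicates differed by 10.9 to 80.8 times the counting variance.

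Members and lists were chosen with earlier results of these data known. In each subfamily the gene with the highest mean CPM is given per library, as are the 3 largest rises and falls called per comparison, and partner genes were taken as 8 fixed ones plus the 3 with the smallest p per list and comparison, of which 1 is not reported here. The protein composition planned at the start was not computed, as no protein sequences were used here. Sprr3 and Sprr2c-ps were too low to test, as were Lelp1 and Smcp of the partner list.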

Additional observations from a re-analysis of the deposited data

How the results depend on the processing

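The number of Sprr and Lce genes called stayed within 1.5 times of its value under every alternative run, at 21 to 28 genes in IMQ against vaseline, 0 in IMQ with bergapten against IMQ, and 22 to 27 in IMQ with bergapten against vaseline. Depth limits the folds of genes with 0 to 3 vaseline counts to bounds or wide counting intervals. With no filter on low counts, Sprr1a, Lce1e, Lce1f, Lce1k and Lce1m were not called in IMQ against vaseline, nor Lce1e and Lce1f in IMQ with bergapten against vaseline. DESeq2 gave no adjusted p for Sprr4, or for Sprr2a2 in IMQ with bergapten against IMQ. The partner and regulator genes called in IMQ with bergapten against IMQ (6) numbered 3 with the replicate block, 1 with only the 2 groups fitted, 13 with DESeq2 and 0 to 9 with libraries left out in turn, and the cause was not tested. The replicate numbers did not pair the libraries: correlations of same-numbered deviations from the group means were -0.0909 to 0.176, and with the block 26, 0 and 25 members were called, against 26, 0 and 24 without it. Directions turned for Nfe2l2 in both comparisons with vaseline and for Trp63 in IMQ with bergapten against vaseline, which were called, all with the epithelial scaling, whose 13 genes include Trp63. The others that turned were not called in the main fit of all 9 libraries. Without IMQ library 2, however, Sprr4 was called in the turned direction in IMQ against vaseline (adjusted p = 0.00383 by edgeR). As log2 fold changes, the turned values were these. In IMQ against vaseline, the values were, with the replicate block Sprr4 -1.65, with the epithelial scaling Lce1b -0.27, Lce1a2 -0.30, Lce1c -0.072, Lce1d -0.15, Klf4 -0.62, Nfe2l2 -0.11, Lor -0.40. In IMQ with bergapten against IMQ, the values were, with library totals Sprr1b 0.024, Lce1e 0.0104, Lce1l 0.026, Lce3f 0.0095, Fosl1 0.025, with the epithelial scaling Sprr1b 0.0093, Lce1e 0.068, Lce1f 0.047, Lce1j 0.018, Lce1l 0.086, Lce3f 0.013, Flg 0.059, Fosl1 0.042, with the replicate block Sprr1b 0.051, Lce1l 0.0017, Lce3c -0.0053, Flg 0.051, with no filter Lce3c -0.00017, with only the 2 groups fitted Lce3c -0.00077. In IMQ with bergapten against vaseline, the values were, with library totals Sprr1a 0.019, Lce1a2 0.0796, with the epithelial scaling Lce1a1 -0.34, Lce1b -0.57, Lce1c -0.35, Lce1d -0.16, Lce1i -0.10, Nfe2l2 -0.36, Cebpb -0.58, Trp63 -0.069. With libraries left out in turn, the log2 fold changes of genes that turned ran as follows. In IMQ against vaseline, the ranges were Klf4 -0.15 to 0.52, Lce1a1 -0.032 to 1.17, Lce1a2 -0.059 to 0.75, Lce1b -0.29 to 0.86, Lce1c -0.13 to 1.10, Lce1d -0.078 to 0.94, Lor -0.43 to 0.79, Sprr4 -4.71 to 2.19. In IMQ with bergapten against IMQ, the ranges were Flg -0.46 to 0.64, Fosl1 -0.39 to 0.34, Lce1a1 -0.89 to 0.35, Lce1a2 -0.81 to 0.038, Lce1b -0.81 to 0.37, Lce1c -0.84 to 0.43, Lce1d -0.48 to 0.57, Lce1e -0.31 to 0.49, Lce1f -0.37 to 0.55, Lce1g -0.50 to 0.43, Lce1h -0.55 to 0.34, Lce1i -0.63 to 0.50, Lce1j -0.47 to 0.56, Lce1k -0.75 to 0.27, Lce1l -0.45 to 0.55, Lce3a -0.47 to 0.28, Lce3b -0.24 to 0.40, Lce3c -0.13 to 0.17, Lce3f -0.20 to 0.22, Lce6a -0.83 to 0.50, Lor -1.04 to 0.20, Sprr1b -0.32 to 0.19, Sprr2b -0.49 to 0.14, Sprr2d -0.52 to 0.076, Sprr2e -0.63 to 0.10, Sprr2f -0.57 to 0.35, Sprr4 -6.87 to 0.52. In IMQ with bergapten against vaseline, the ranges were Cebpb -0.052 to 0.20, Klf4 -0.41 to 0.25, Lce1a2 -0.14 to 0.033, Lce1b -0.25 to 0.20, Sprr1a -0.27 to 0.0899.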
